A study of Mus musculus with 5 samples.

Results

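Nfe2l2, the gene of the transcription factor NRF2, and 9 genes of antioxidant defence around it were compared between melanocyte stem cells at rest and the melanocytes of growing hair follicles. The 10 genes were Nfe2l2, its inhibitor gene Keap1, and Hmox1, Nqo1, Gclc, Gclm, Gsr, Txnrd1, Srxn1 and Cat, given by symbol and found through their Entrez identifiers. All 10 of 10 were among the 24100 genes of the count table and passed the filter on low counts. RNA came from cells sorted from mouse back skin, all from males of a mixed CD1 and C57Bl6J background, and was read by poly-A selected, non-stranded sequencing. The 2 libraries of quiescent melanocyte stem cells (McSC below) came from mice carrying the Dct-eGFP reporter, aged 60 and 62 days, in the 2nd telogen, the resting phase of the hair cycle. The 3 melanocyte libraries came from mice of 10 days in full anagen, the growth phase, carrying Dct-eGFP and Lef1-RFP. Every sort took cells positive for Dct-eGFP with medium to low integrin α6 and without CD31, CD45, CD140a, Sca1 or CD34; the melanocyte sort also required Lef1-RFP and c-Kit. Each library pooled 2 to 4 males. Age, hair cycle phase, reporter strain and sorting gate differ between the groups together and cannot be told apart.

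NRF2 is a transcription factor that pairs with a small MAF protein on antioxidant response elements and switches on genes that make glutathione and reduce oxidants. In unstressed cells KEAP1 holds NRF2 and hands it to the CUL3 ubiquitin ligase for destruction, so the factor is governed largely at the protein level, which RNA does not show. Pigment cells are known for a high oxidant load, because melanin synthesis gives off hydrogen peroxide and quinones.

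Promoter windows are printed for Nfe2l2, Gclm, Txnrd1 and Srxn1 because they hold the core of the antioxidant response element, and for Cat as a called gene without it. They are RefSeq sequences on GRCm38.p6 (mm10), reading 5′ to 3′ in the direction of transcription from 250 bases before to 50 bases after the start site. Capitals mark each match to the looser element TGANNNNGC on either strand.

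Nfe2l2 (chr2:75704614-75704913, minus strand): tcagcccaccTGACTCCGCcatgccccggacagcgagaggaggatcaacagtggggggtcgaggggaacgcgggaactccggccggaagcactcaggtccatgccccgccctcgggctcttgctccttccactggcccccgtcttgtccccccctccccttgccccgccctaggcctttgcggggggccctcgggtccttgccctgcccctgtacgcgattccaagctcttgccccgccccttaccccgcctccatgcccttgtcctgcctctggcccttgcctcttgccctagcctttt
Gclm (chr3:122245307-122245606, plus strand): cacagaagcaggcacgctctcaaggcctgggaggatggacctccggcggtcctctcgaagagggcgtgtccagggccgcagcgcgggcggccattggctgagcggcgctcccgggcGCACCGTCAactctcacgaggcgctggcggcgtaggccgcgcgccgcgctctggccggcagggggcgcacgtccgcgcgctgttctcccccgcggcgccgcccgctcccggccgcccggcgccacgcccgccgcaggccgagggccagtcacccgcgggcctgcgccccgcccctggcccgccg
Txnrd1, second of its annotated starts (chr10:82858956-82859255, plus strand): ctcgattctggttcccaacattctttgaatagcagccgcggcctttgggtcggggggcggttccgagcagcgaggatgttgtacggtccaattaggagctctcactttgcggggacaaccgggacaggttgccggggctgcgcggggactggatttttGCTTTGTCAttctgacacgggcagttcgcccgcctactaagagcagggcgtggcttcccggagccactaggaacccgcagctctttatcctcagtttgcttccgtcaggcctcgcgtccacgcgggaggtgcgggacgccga
Srxn1 (chr2:152105274-152105573, plus strand): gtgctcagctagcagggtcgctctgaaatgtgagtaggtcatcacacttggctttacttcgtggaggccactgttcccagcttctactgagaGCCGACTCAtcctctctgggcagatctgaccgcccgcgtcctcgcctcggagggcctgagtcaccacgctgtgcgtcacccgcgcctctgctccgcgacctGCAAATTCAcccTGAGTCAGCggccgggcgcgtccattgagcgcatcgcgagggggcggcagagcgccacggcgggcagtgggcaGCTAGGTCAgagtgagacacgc
Cat (chr2:103485104-103485403, minus strand): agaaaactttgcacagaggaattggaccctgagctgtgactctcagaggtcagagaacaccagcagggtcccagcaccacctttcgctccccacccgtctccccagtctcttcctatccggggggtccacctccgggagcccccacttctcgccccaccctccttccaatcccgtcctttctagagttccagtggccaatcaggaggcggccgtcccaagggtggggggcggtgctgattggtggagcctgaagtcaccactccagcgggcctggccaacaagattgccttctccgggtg

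The core TGACNNNGC was searched on both strands. It was in the window of 4 of the 7 genes that had one (Nfe2l2, Gclm, Txnrd1 and Srxn1). Among all 27018 genes with RefSeq promoter windows, 14% had a match in any of their windows (12.4% of 32841 windows). Windows for Hmox1, Gclc and Gsr were not analysed here. Read on its own strand, the match was TGACTCCGC in Nfe2l2, its leftmost base at -240 from the start site. On the opposite strand it was TGACGGTGC in Gclm, at -134, TGACAAAGC in Txnrd1, at -92, and TGACCTAGC in Srxn1, at 29 within the transcript. With the looser TGANNNNGC, in 45.1% of all genes and 41.3% of all windows, Keap1 was added and Srxn1 had 4 matches. One of these, TGAGTCAGC at -45, also contains the AP-1 element TGANTCA, which Srxn1 held at 2 positions and the other windows at none (8.98% of all genes and 7.81% of all windows). Neither the core nor the looser letters occurred in the windows of Nqo1 and Cat. These matches describe letters only. They did not sort the genes by direction, since Nfe2l2 was higher in McSC, Gclm higher in melanocytes, and Txnrd1 and Srxn1 were not called.

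Total counts ran from 17512381 to 124530834 per library. Of 16953 genes tested between the groups with edgeR's quasi-likelihood test, 55.4% were called, which means a Benjamini-Hochberg adjusted p under 0.05. Melanocyte replicate 1 stood apart in its lineage RNA. The summed level of 8 melanocyte lineage markers (Dct, Pmel, Tyrp1, Tyr, Mlana, Sox10, Mitf and Gpr143), in CPM (read counts scaled to the TMM-adjusted library size), was 2853 there, against 17237 and 18787.5 in melanocyte replicates 2 and 3 and 17426 and 18777 in the McSC libraries. Most of this sum is Dct, Pmel and Tyrp1, so like sums do not mean like levels of each marker. Of the 8, 0 were called higher in melanocytes, 2 higher in McSC and 6 not called. The 2 were Mitf (mean 1105 CPM in McSC against 101 CPM in melanocytes) and Sox10 (456 against 130 CPM). Some keratinocyte, Schwann cell, immune and endothelial markers were higher in McSC, but most markers of other skin cells were higher in the melanocyte libraries. All 13 measured hair follicle markers were called higher in them (summed level 4041 to 5579.8 CPM, against 22.8 and 74.6 CPM), as were all 10 fibroblast markers (1906 to 5437 against 12.5 and 43.7 CPM) and 9 of 12 immune markers (67.7 to 115.5 against 13.2 and 13.9 CPM). The single hair follicle marker at 0 counts in McSC was Krt34, and none of the fibroblast or immune markers was at 0 in either group. Of the immune markers, 2 (Cd68 and Cd207) were called higher in McSC and 1 (Cd3e) was not called. Cd68 made up most of the McSC immune sums, at 11.1 and 10.8 CPM. Of 6 erythroid markers, 4 were called higher in melanocytes (193 to 538 against 10.6 and 12.1 CPM). Markers of muscle went the same way (8 of 8 higher in melanocytes, 89.5 to 204 against 1.51 and 1.74 CPM). So did 7 of 8 endothelial markers (summed level of the 8, 24.1 to 52.6 against 9.83 and 12.4 CPM). The exception, Esam, was called higher in McSC and made up most of the McSC endothelial sums, at 8.13 and 10.5 CPM. Of 4 adipocyte markers tested, 2 were called higher in melanocytes (summed level of the list 128 to 204 against 48.0 and 58.4 CPM). These were Fabp4 (mean 0.0785 CPM in McSC against 89.7 CPM) and Adipoq (0.0179 against 0.274 CPM). Most of the McSC sum was Lpl, which was not called (53.0 against 69.4 CPM). Keratinocyte markers divided (6 higher, 5 lower, 1 not called; 3785 to 5199 against 3108 and 4295 CPM), as did Schwann cell markers (3, 3 and 2; 201 to 268 against 848 and 1069.7 CPM). The 5 keratinocyte markers higher in McSC included Krt10 (mean 959 CPM in McSC against 40.6 CPM in melanocytes) and Krt1 (262 against 12.7 CPM). Krtdap (148 against 4.59 CPM) and Krt15 (446 against 114 CPM) were also among them. The 6 higher in melanocytes included Trp63 (83.6 CPM in McSC against 605 CPM) and Krt5 (709 against 1454 CPM). The part of these cells in the differences below was not tested. In bulk libraries, fewer cells of a type and less RNA per cell cannot be told apart.

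Of the 10 genes, 5 were called higher in melanocytes (29.1% of all tested genes were) and 2 higher in McSC (26.2% of all). The groups did not overlap in 8 of the 10 genes, against 74.5% of all tested genes. The regulator and its target enzymes divided. Nfe2l2 and the catalase gene Cat were higher in McSC, whereas Keap1, both subunits of glutamate-cysteine ligase, glutathione reductase and Nqo1 were higher in melanocytes. Hmox1, Txnrd1 and Srxn1 were not called.

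**Figure D1:**
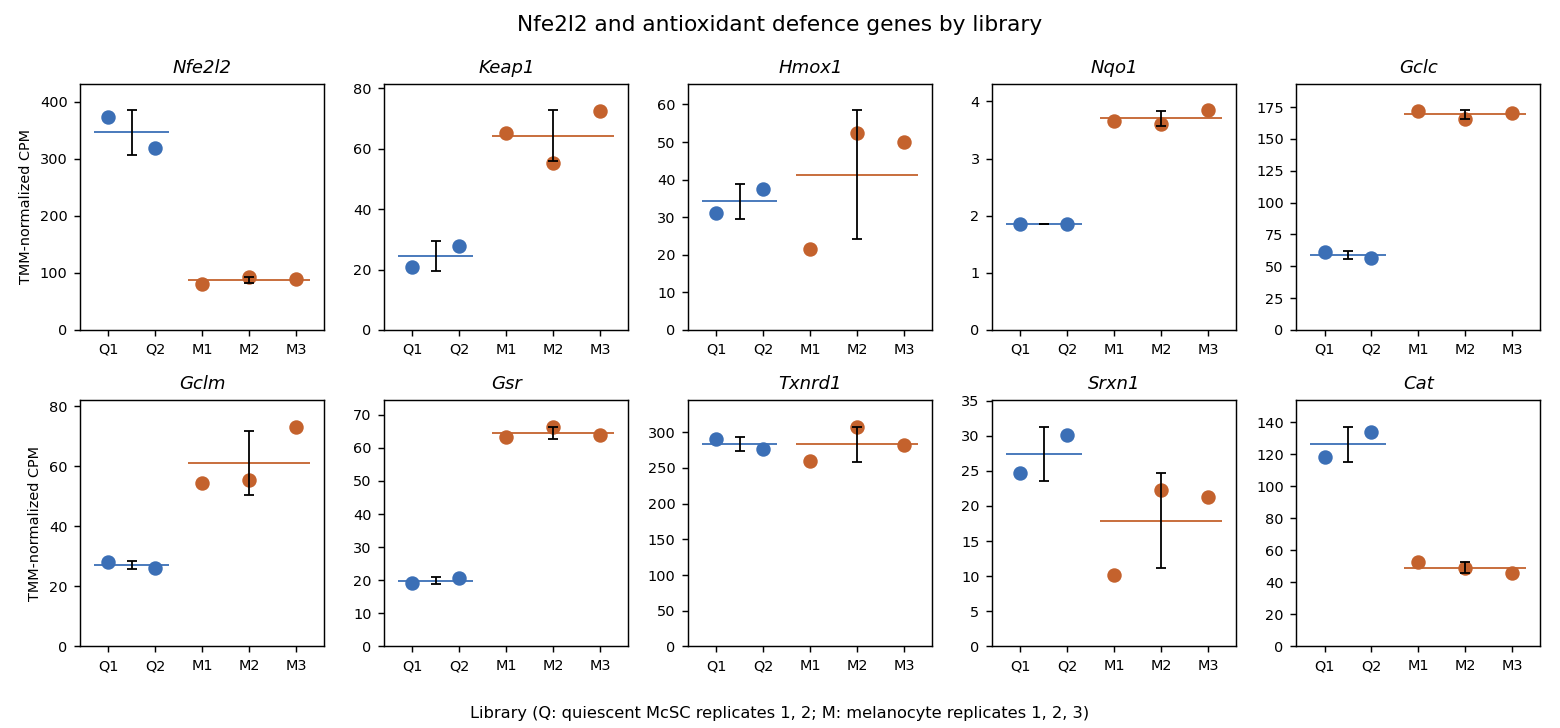
TMM-normalized CPM of each of the 10 genes (vertical axes, each from 0) in the 2 quiescent McSC libraries (Q1, Q2, blue) and the 3 melanocyte libraries (M1 to M3, orange); lines are group means and bars the SD. Nfe2l2 and Cat are lower in every melanocyte library, Keap1, Nqo1, Gclc, Gclm and Gsr are higher in every one, and Hmox1 and Srxn1 are lowest in M1.

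Nfe2l2, the gene of NRF2 itself (chromosome 2, 75675513 to 75704663), read 374 and 319 CPM in McSC replicates 1 and 2 and 81.3, 92.7 and 88.7 CPM in melanocyte replicates 1 to 3. Both stem cell libraries lay far above all 3 melanocyte libraries. The means were 346 ± 39.3 CPM (SD, n = 2) and 87.6 ± 5.78 CPM (SD, n = 3), a 3.95-fold difference (log2 fold change, melanocyte minus quiescent McSC, -1.98 ± 0.13 SE, adjusted p = 0.000119). An equal or larger change in either direction was seen in 22.3% of all tested genes.

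Keap1, whose protein is the sensor that binds NRF2 (chromosome 9, 21229730 to 21239332), went the other way. It read 21.0 and 28.0 CPM in McSC and 65.2, 55.4 and 72.4 CPM in melanocytes, without overlap. The log2 fold change was 1.39 ± 0.19 (2.62-fold, adjusted p = 0.00143). An antisense gene overlaps 510 bases of Keap1 exons in the GENCODE annotation, and reads of the pair cannot be told apart without strand.

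The ratio of Nfe2l2 to Keap1 within a library, taken from CPM per kilobase of exon, was 22.03 and 14.1 in McSC and 1.54, 2.07 and 1.52 in melanocytes. The ratio in each stem cell library was thus above that in each melanocyte library, and the ratio restates the opposite changes of the pair rather than adding to them.

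Gclc and Gclm encode the catalytic and the modifier subunit of glutamate-cysteine ligase, the rate-limiting enzyme of glutathione synthesis. Gclc (chromosome 9, 77754535 to 77794489) read 60.8 and 56.8 CPM in McSC and 172, 165 and 170.3 CPM in melanocytes, a 2.88-fold difference (log2 fold change 1.52 ± 0.10, adjusted p = 0.000138). Its coefficient of variation over the melanocyte libraries was 2.06%, the smallest of the 10 genes. Gclm (chromosome 3, 122245487 to 122267215) read 28.2 and 26.3 CPM against 54.4, 55.5 and 73.3 CPM, with melanocyte replicate 3 highest (1.16 ± 0.17, 2.24-fold, adjusted p = 0.00201). Exons of 2 other annotated genes overlap those of Gclm, by 296 bases on the opposite strand and by 244 bases on the same one. Per kilobase of exon, the level of Gclc over that of Gclm was 3.60 and 3.61 in McSC and 5.28, 4.97 and 3.88 in melanocytes.

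Gsr, the NADPH-dependent reductase that returns oxidized glutathione to its reduced form (chromosome 8, 33653238 to 33698162), rose most of the 10 genes in melanocytes. Its levels were 19.1 and 20.7 CPM in McSC and 63.2, 66.4 and 63.8 CPM in melanocytes. The groups were far apart relative to their spread (1.69 ± 0.11, 3.24-fold, adjusted p = 0.00013). In melanocyte replicate 1, Gclc and Gsr differed by 0.04 and -0.04 from the mean of replicates 2 and 3 on the log2 scale.

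Txnrd1, the selenoenzyme that does the corresponding step for cytosolic thioredoxin (chromosome 10, 82833951 to 82897724), was not called. It read 291 and 277 CPM in McSC and 259, 308 and 282 CPM in melanocytes, so that the groups overlapped. The log2 fold change was -0.0027 ± 0.13 (adjusted p = 0.988), and over 14 alternative analyses it ranged from -0.09 to 0.22 without a call. Relative to Gsr, per kilobase of exon, Txnrd1 was at 5.91 and 5.20 in McSC and at 1.60, 1.80 and 1.72 in melanocytes.

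Cat, the peroxisomal enzyme that breaks down hydrogen peroxide (chromosome 2, 103453904 to 103485153), was the second gene higher in McSC. It read 118 and 134 CPM there and 52.9, 48.9 and 45.8 CPM in melanocytes, without overlap (-1.36 ± 0.11, 2.56-fold, adjusted p = 0.000287). Erythroid cells are rich in catalase. The summed erythroid markers were higher in the melanocyte libraries. Their part in the Cat levels was not tested.

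Nqo1, a quinone reductase often used as a readout of NRF2 activity (chromosome 8, 107388225 to 107403205), was the lowest of the 10 genes. It had 116 and 208 counts in McSC and 148, 246 and 72 counts in melanocytes. These were 1.86 CPM in each of the McSC libraries and 3.65, 3.61 and 3.85 CPM in melanocytes. The log2 fold change was 0.99 ± 0.27 (1.99-fold, adjusted p = 0.0216). The call was lost without either McSC library (adjusted p = 0.106 and 0.112), without melanocyte replicate 2 or 3 (0.0501 and 0.0557), with a replicate block (0.106) and after thinning to the shallowest library (0.239). Thinning lowered the log2 fold change to 0.47, and the other 5 left it between 0.96 and 0.99.

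Hmox1 and Srxn1 varied within the melanocytes. Hmox1, which degrades haem (chromosome 8, 75093618 to 75100593), read 31.0 and 37.5 CPM in McSC and 21.5, 52.4 and 50.1 CPM in melanocytes (0.27 ± 0.38, adjusted p = 0.574). Melanocyte replicate 1 lay below both stem cell libraries and the other two lay above them. Without melanocyte replicate 1, Hmox1 was called higher in melanocytes (0.59, adjusted p = 0.00918), and 6 of the 10 genes were then higher in melanocytes. Macrophages are rich in Hmox1. The summed immune markers were 115.5, 67.7 and 96.0 CPM in melanocyte replicates 1 to 3. The part of immune cells in the Hmox1 levels was not tested.

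Srxn1, sulfiredoxin, which repairs overoxidized peroxiredoxins (chromosome 2, 152105524 to 152111376), read 24.7 and 30.2 CPM in McSC and 10.1, 22.3 and 21.3 CPM in melanocytes. All 3 melanocyte libraries were lower, yet the gene was not called (-0.62 ± 0.35, adjusted p = 0.175), also without melanocyte replicate 1 (-0.33, adjusted p = 0.12). Melanocyte replicate 1 stood below the mean of replicates 2 and 3 by a log2 difference of -1.25 in Hmox1 and -1.11 in Srxn1. In the other 8 genes this difference lay between -0.23 and 0.16. The summed lineage markers were 0.158 times as high in that library as in the mean of the other two, and the fibroblast markers 2.76 times as high. The part of these in the low Hmox1 and Srxn1 was not tested.

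**Figure D2:**
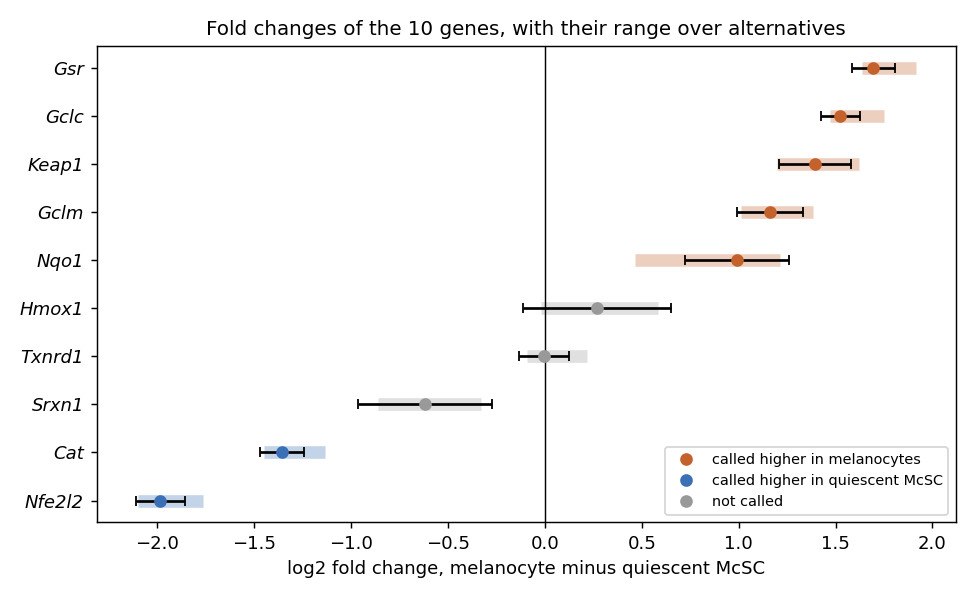
Log2 fold change of each gene, melanocyte minus quiescent McSC (horizontal axis); points with black bars are the estimate ± SE and pale bands the range over 14 alternative analyses (13 for Nqo1), with colour for the call. The bands of Nfe2l2 and Cat stay below 0 and those of Gsr, Gclc, Keap1, Gclm and Nqo1 above it, while Hmox1 and Txnrd1 reach both sides.

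Without melanocyte replicate 1, the 7 called genes kept their call. Their log2 fold changes were then -1.93 for Nfe2l2, -1.41 for Cat, 1.38 for Keap1, 1.52 for Gclc, 1.24 for Gclm, 1.71 for Gsr and 1.01 for Nqo1.

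Levels of different genes were compared per kilobase of summed exon length. In McSC the highest was Nfe2l2, at 91.3 ± 10.3 CPM per kb (SD, n = 2), before Cat at 48.3 ± 4.27 and Txnrd1 at 40.1 ± 1.43. Hmox1 (19.6 ± 2.62), Gclc (15.6 ± 0.768), Srxn1 (9.73 ± 1.37), Gsr (7.23 ± 0.400), Keap1 (5.22 ± 1.05), Gclm (4.33 ± 0.216) and Nqo1 (1.20 ± 0.00172) followed. In that order only the neighbours Keap1 and Gclm overlapped between libraries.

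In melanocytes Gclc took the first place, at 44.9 ± 0.926 CPM per kb (SD, n = 3), and Txnrd1 the next, at 40.0 ± 3.43. Hmox1 (23.6 ± 9.82), Gsr (23.4 ± 0.622) and Nfe2l2 (23.1 ± 1.52) came after them and overlapped between libraries, so their order is not resolved. Cat (18.8 ± 1.37) and Keap1 (13.7 ± 1.81) overlapped with Hmox1 but not with each other. Gclm (9.71 ± 1.69), Srxn1 (6.35 ± 2.40) and Nqo1 (2.38 ± 0.0832) were the lowest. The order depended on the length used. With the longest transcript as the length, Txnrd1 (78.2 ± 6.70 CPM per kb) stood above Gclc (49.4 ± 1.02) in melanocytes, and in McSC Txnrd1 (78.4 ± 2.80) stood above Cat (48.3 ± 4.27). The rank of 2 genes changed in McSC and of 5 in melanocytes.

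Among 10301 genes of at least 10 CPM on average, the genes whose pattern over the 5 libraries was nearest to that of Nfe2l2 were Lysmd3, Fbxo30 and Irf7. Their distances were 0.0854, 0.136 and 0.145, as the Euclidean distance of log2 CPM centred on each gene's mean. Fbxo30, an F-box gene, read 124 and 108 CPM in McSC and 26.2, 33.5 and 28.5 CPM in melanocytes. With 5 libraries in 2 groups such likeness mostly restates the group difference.

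Partners and regulators of NRF2 were taken as a list of 15 genes. Of these, 8 were higher in McSC (53.3%, against 26.2% of all tested genes) and 4 in melanocytes (26.7% against 29.1%). The other 3 were not called, and the median log2 fold change was -0.49, against 0.03 over all tested genes. The small MAF genes, whose proteins are the obligate partners of NRF2 on DNA, were all 3 higher in McSC. Mafk read 440 and 537 CPM there and 27.5, 23.9 and 26.4 CPM in melanocytes (-4.24 ± 0.15, adjusted p = 3.65e-05). Maff read 167 and 184 CPM against 9.841, 10.28 and 9.997 CPM (-4.13 ± 0.11, adjusted p = 3.65e-05), and Mafg changed less (-0.99 ± 0.17, adjusted p = 0.00387). Small MAF proteins also pair with each other and with BACH repressors, so their RNA does not stand for NRF2 activity alone.

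The related CNC factors and the BACH repressors, which compete with NRF2 for the same elements, each divided. Nfe2l3 was at 4.35 and 4.12 CPM in McSC and at 55.8, 68.9 and 60.3 CPM in melanocytes (3.86 ± 0.16, adjusted p = 4.49e-05). Nfe2l1, known for driving proteasome genes, was higher in McSC (-1.05 ± 0.15, adjusted p = 0.00184). Bach2 was higher in melanocytes, at 89.0 ± 4.07 against 27.9 ± 4.61 CPM (1.67 ± 0.14, adjusted p = 0.000287), and Bach1, the haem-sensing repressor of Hmox1, higher in McSC, at 105 ± 0.280 against 58.9 ± 10.5 CPM (-0.83 ± 0.16, adjusted p = 0.00558).

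**Figure D3:**
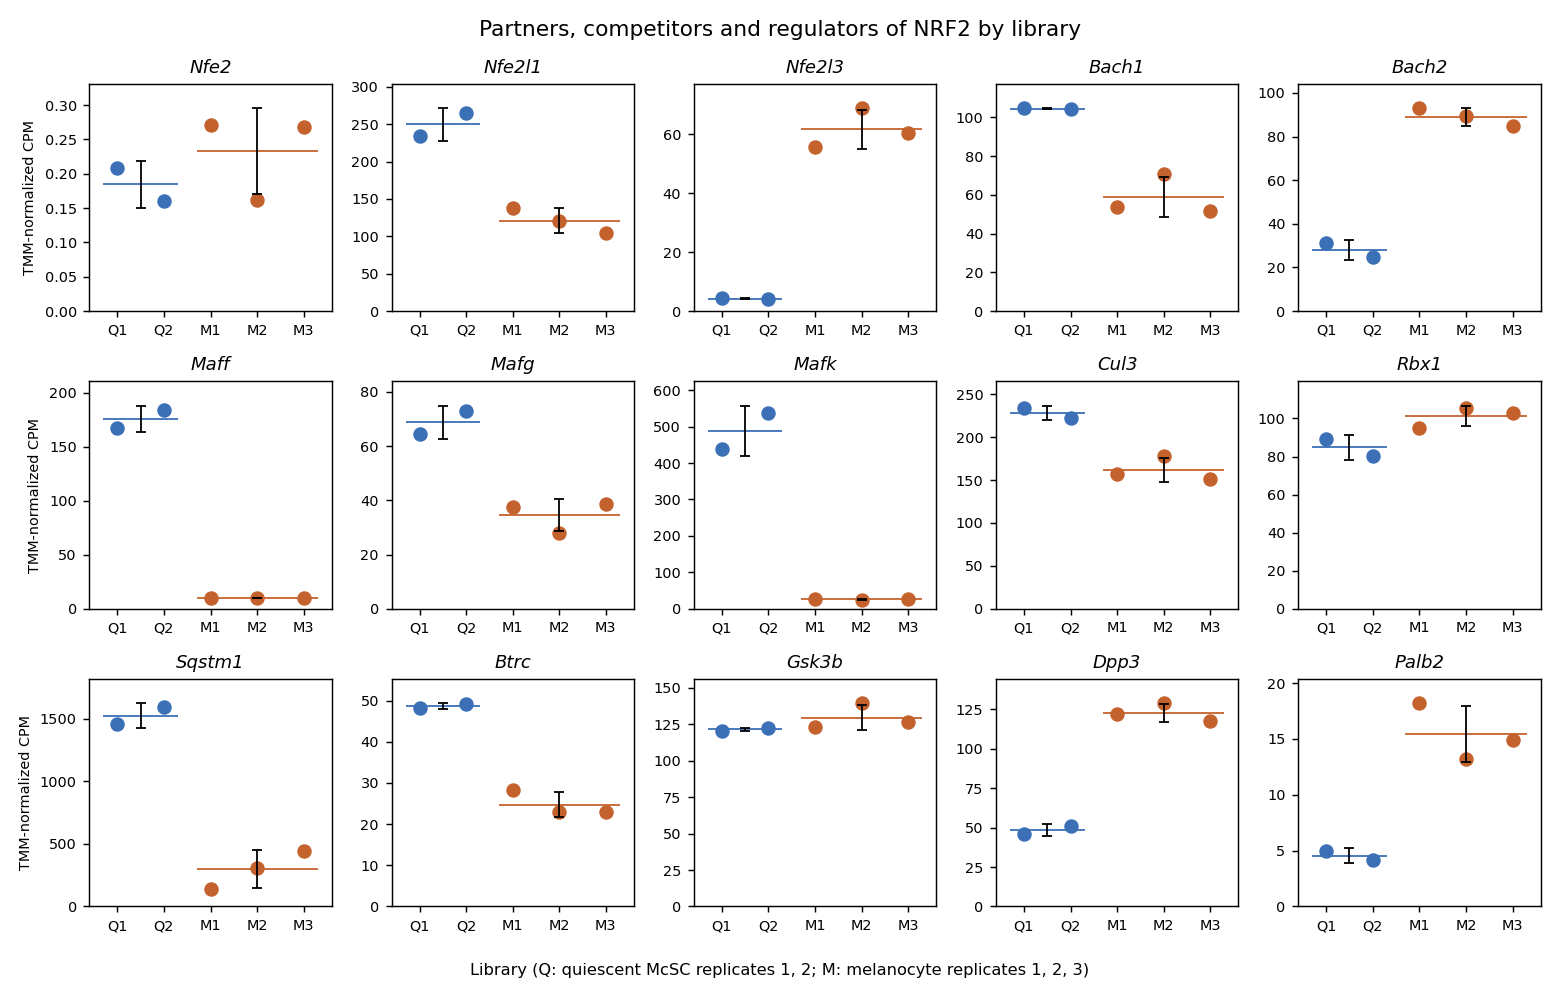
TMM-normalized CPM (vertical axes, each from 0) of 15 partners, competitors and regulators of NRF2 in quiescent McSC (Q1, Q2, blue) and melanocyte libraries (M1 to M3, orange), with group means as lines and the SD as bars. Mafk and Maff are high in Q1 and Q2, Nfe2l3, Bach2, Dpp3 and Palb2 are high in the melanocyte libraries, and Sqstm1 is lowest in M1.

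Among genes that act on KEAP1 or on NRF2 stability, the kinase gene Gsk3b (0.09 ± 0.10, adjusted p = 0.484) and the ligase subunit gene Rbx1 (0.26 ± 0.11, adjusted p = 0.0865) were not called. Sqstm1, the autophagy receptor p62 that can draw KEAP1 away from NRF2, read 1454 and 1593 CPM in McSC and 143, 310 and 442 CPM in melanocytes (-2.35 ± 0.44, adjusted p = 0.00519), with melanocyte replicate 1 again lowest. Dpp3 and Palb2, whose proteins can bind KEAP1 in place of NRF2, were higher in melanocytes (1.34 ± 0.11 and 1.76 ± 0.24, adjusted p = 0.000267 and 0.0015). Btrc, the ligase subunit of the route that does not need KEAP1, was higher in McSC (-0.98 ± 0.14, adjusted p = 0.00186). Cul3, the scaffold of the KEAP1 ligase, was called higher in McSC (-0.49 ± 0.12, adjusted p = 0.0144). That call was lost without McSC replicate 1 or 2 or melanocyte replicate 3 (adjusted p = 0.091, 0.0623 and 0.0521), with library size only (0.0699) and with the replicate block (0.128).

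Over 8 lists of surrounding redox genes, including the partners above, 130 genes were tested. Of these, 44 were higher in melanocytes, 39 higher in McSC and 47 not called, with a median log2 fold change of 0.14. These were 33.8% and 30.0% of the 130, near the 29.1% and 26.2% of all tested genes. With library size only they were 55 and 31. The first number was 29 without either McSC library.

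Genes of glutathione supply and use followed Gclc and Gclm in part. Of 21, 11 were higher in melanocytes (52.4%, against 29.1% of all tested genes) and 2 in McSC (9.52% against 26.2%). The remaining 8 were not called, and the list's median was 0.47. Without McSC replicate 2 or melanocyte replicate 2 the 11 became 7. Slc7a11, the cystine carrier that feeds glutathione synthesis, read 7.15 and 6.83 CPM in McSC and 27.6, 46.6 and 26.1 CPM in melanocytes (2.26 ± 0.30, adjusted p = 0.00151). Gss, the second enzyme of the synthesis, was at 22.3 ± 0.318 and 47.4 ± 6.51 CPM (1.09 ± 0.15, adjusted p = 0.00171), and Ggt1, which breaks glutathione down outside the cell, at 0.696 ± 0.150 and 22.8 ± 1.58 CPM (5.04 ± 0.25, adjusted p = 6.83e-05).

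The 2 glutathione genes higher in McSC were peroxidases. Gpx3, the secreted form, read 198 and 312 CPM there and 17.5, 8.50 and 7.38 CPM in melanocytes (-4.51 ± 0.42, adjusted p = 0.000414). Gpx4, which reduces lipid peroxides in membranes, was at 374 ± 38.0 against 146 ± 29.6 CPM (-1.36 ± 0.19, adjusted p = 0.00178). Gpx1, named here after its values were seen, was at 119 ± 7.15 and 144 ± 28.7 CPM and was not called (adjusted p = 0.264).

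Glutathione transferases, which attach glutathione to reactive compounds and include well-known NRF2 targets in mouse liver, were also taken as a list. Of 22 tested, 9 were higher in McSC (40.9%, against 26.2% of all tested genes), 3 in melanocytes (13.6% against 29.1%) and 10 were not called (median -0.64). Without McSC replicate 2 the 9 became 5. Gstm1 was at 223 ± 12.7 against 38.1 ± 8.07 CPM (-2.55 ± 0.19, adjusted p = 0.000203) and Gsta4 at 46.1 ± 6.13 against 14.1 ± 5.31 CPM (-1.72 ± 0.32, adjusted p = 0.00514). Mgst3 (1.72 ± 0.17, adjusted p = 0.000466) and Gstm2 (1.01 ± 0.16, adjusted p = 0.00301) were higher in melanocytes. These families hold close paralogs, so the split of reads between Gstm1 and Gstm2 is uncertain.

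Of 18 thioredoxins, peroxiredoxins and relatives, 5 were higher in melanocytes, 6 in McSC and 7 not called (median -0.01). These shares, 27.8% and 33.3%, were near those of all tested genes (29.1% and 26.2%). Txnip, the inhibitor of thioredoxin, was at 1109.5 ± 14.6 CPM in McSC and 141 ± 27.9 CPM in melanocytes (-2.98 ± 0.20, adjusted p = 0.000135). The mitochondrial reductase gene Txnrd2 (-1.49 ± 0.22, adjusted p = 0.00217) and Txnrd3 (-1.30 ± 0.15, adjusted p = 0.0009) were higher in McSC, unlike Txnrd1. Prdx2, a cytosolic peroxiredoxin, was higher in melanocytes, at 293 ± 34.3 against 108 ± 2.502 CPM (1.44 ± 0.14, adjusted p = 0.000494).

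Of the genes listed for supply of NADPH, the electron donor of Gsr, Txnrd1 and Nqo1, most were called higher in melanocytes. Their summed level was not higher there, at 1213 and 1346 CPM in McSC and 1050, 1217 and 1181 CPM in melanocytes. Of 10, 7 were higher there (70%, against 29.1% of all tested genes) and 1 in McSC (10% against 26.2%). Another 2 were not called, and the list's median was 0.80. G6pdx, the first enzyme of the pentose phosphate pathway, read 43.0 and 37.0 CPM in McSC and 140.1, 199 and 142 CPM in melanocytes (2.00 ± 0.20, adjusted p = 0.000517). Mthfd2, a mitochondrial folate enzyme, and Idh1, the cytosolic isocitrate dehydrogenase, were also higher (3.11 ± 0.22 and 1.08 ± 0.12, adjusted p = 0.000165 and 0.000789). The exception was Idh2, the mitochondrial isocitrate dehydrogenase, at 734 ± 101 CPM in McSC and 80.8 ± 12.2 CPM in melanocytes (-3.19 ± 0.18, adjusted p = 8.45e-05). Without melanocyte replicate 1, with DESeq2 or with limma-voom, 2 genes of this list were higher in McSC. In these melanocyte libraries the hair follicle markers were also higher (4041 to 5579.8 against 22.8 and 74.6 CPM), and their part was not tested.

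Superoxide dismutase and oxidase genes, listed together with Prnp and Park7, gave 6 higher in melanocytes, 3 in McSC and 5 not called of 14 (median 0.38). Prnp, neither a dismutase nor an oxidase gene, was 1 of the 3 (-0.42 ± 0.14, adjusted p = 0.0408). Its call was lost in 6 of 14 alternatives. Their shares were 42.9% and 21.4%, against 29.1% and 26.2% of all tested genes. Sod1, the cytosolic superoxide dismutase, was higher in McSC, at 149 ± 7.79 against 75.0 ± 11.6 CPM (-0.99 ± 0.15, adjusted p = 0.00244), as was the oxidase subunit gene Cyba (-1.42 ± 0.21, adjusted p = 0.00223). Sod2, the mitochondrial enzyme, was called higher in melanocytes (0.54 ± 0.13, adjusted p = 0.0129). That call was lost without McSC replicate 1 or 2 (adjusted p = 0.0514 and 0.0966) and with the replicate block (0.0896). Among the genes higher in melanocytes, Cybb, Ncf1, Nox1 and Duox2 were under 5 CPM in all libraries and are named after their values were seen. Cybb and Ncf1 belong to the phagocyte oxidase, and the summed immune markers were higher in the same libraries (67.7 to 115.5 against 13.2 and 13.9 CPM). The count of 6 became 2 without McSC replicate 1 and 3 without replicate 2, 3 with the replicate block, and 2 with a stricter filter.

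Around Hmox1, 12 genes of haem and iron handling gave 3 higher in melanocytes, 4 in McSC and 5 not called (median 0.08). Shares of 25% and 33.3% were near the 29.1% and 26.2% of all tested genes. Flvcr1, a haem export gene, was at 185 ± 14.9 CPM in McSC and 27.9 ± 2.61 CPM in melanocytes (-2.73 ± 0.12, adjusted p = 5.63e-05). Tfrc, the transferrin receptor, read 95.1 and 79.9 CPM in McSC and 576, 356 and 304 CPM in melanocytes (2.24 ± 0.31, adjusted p = 0.00173). Tfrc is also abundant in erythroid precursors, and the erythroid markers were likewise highest in melanocyte replicate 1 (538 CPM, against 195 and 193 CPM in the other two). Ireb2, which encodes an iron regulatory protein (0.47 ± 0.11, adjusted p = 0.0126), and Slc40a1, the iron exporter ferroportin (-0.58 ± 0.16, adjusted p = 0.0249) were called with small changes. Both lost their call without McSC replicate 2 (adjusted p = 0.107 and 0.0579), and Slc40a1 also without McSC replicate 1 (0.164) or melanocyte replicate 3 (0.0664) and with library size only (-0.36, adjusted p = 0.100). With the replicate block the values were 0.104 and 0.121. The counts of 3 and 4 became 1 and 1 without McSC replicate 2; the latter was 1 without replicate 1 or with library size only, and 2 without melanocyte replicate 3. With the replicate block they were 1 and 2.

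Of 18 other known NRF2 targets, 5 were higher in melanocytes, 6 in McSC and 7 not called (median 0.13). Pir, which encodes pirin, read 22.7 and 23.1 CPM in McSC and 1.63, 1.48 and 1.28 CPM in melanocytes (-3.96 ± 0.21, adjusted p = 7.17e-05). The reductase gene Ptgr1 (-1.53 ± 0.15, adjusted p = 0.000523) and the fatty aldehyde dehydrogenase gene Aldh3a2 (-0.69 ± 0.10, adjusted p = 0.00182) were higher in McSC too. Esd, an esterase gene, was called higher in melanocytes (0.73 ± 0.21, adjusted p = 0.0266), a call lost without McSC replicate 1 or 2 (0.128 and 0.118), without melanocyte replicate 3 (0.0537) and with the replicate block (0.0524). The count of 5 became 1 and 2 without McSC replicates 1 and 2 and 2 without melanocyte replicate 2, and it was 8 with library size only or limma-voom and 3 with the replicate block. The 5 and 6 calls were 27.8% and 33.3% of this list, near the 29.1% and 26.2% of all tested genes.

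**Figure D4:**
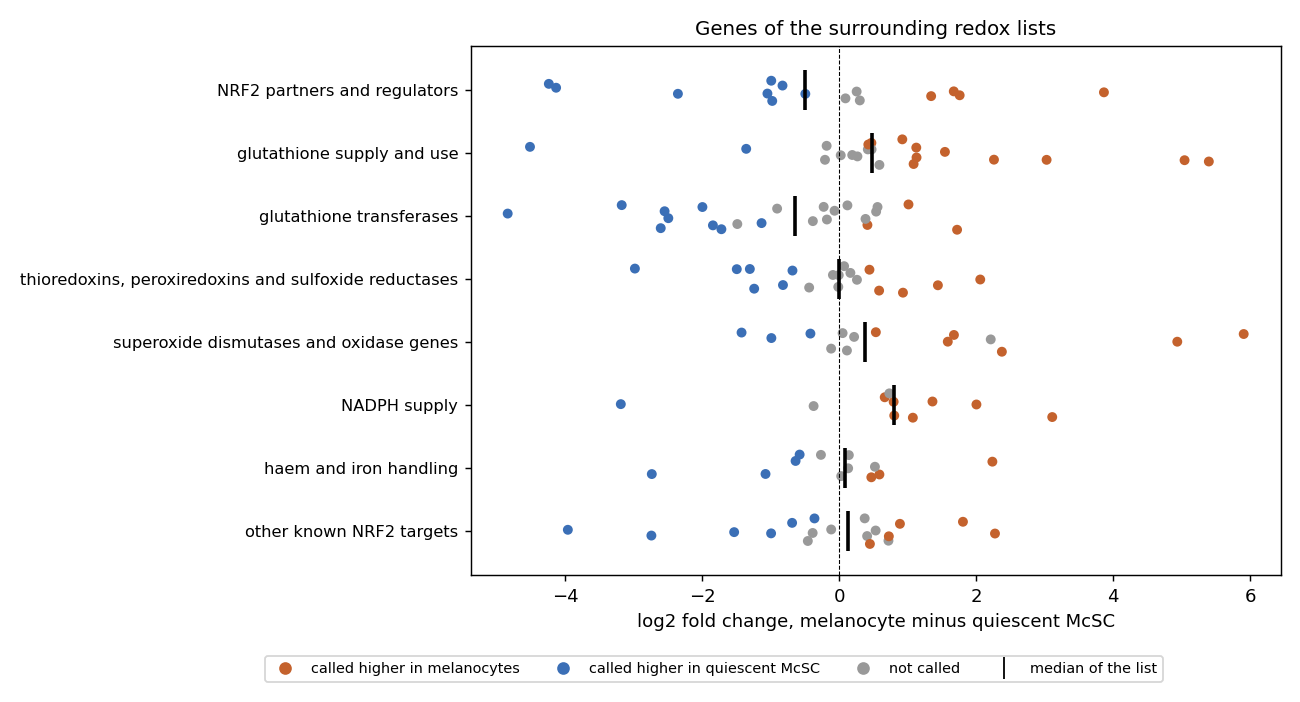
Log2 fold change, melanocyte minus quiescent McSC (horizontal axis), of the 130 tested genes of 8 redox lists (rows); each dot is a gene, coloured by its call, and the black tick is the list's median. NADPH supply has the highest median (0.80) and glutathione transferases the lowest (-0.64), and every list has called genes on both sides of 0.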

How the data were processed

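The counts deposited by the authors are whole numbers per gene and library and were taken as raw, unpooled counts. Per the submitters' processing notes, the tools were Salmon 0.8.2 and STAR 2.5.2a with build mm10; which made the counts, and on which annotation, is not given in the sources used here. Of 24100 Entrez identifiers, 24045 matched a RefSeq symbol (GRCm38.p6). Counts were filtered with filterByExpr, TMM-normalized and tested with edgeR 4.0.16 (quasi-likelihood F-test, two-sided, Benjamini-Hochberg over 16953 genes, threshold 0.05) in R 4.3.3, with all 5 libraries and no covariate. SE came from the fold change and F statistic. Depth was 17512381 to 124530834 counts, and a count of 3 corresponds to 0.171 and 0.0241 CPM at these ends. The labels call the libraries biological replicates of pooled males. The procedure was tested on simulated data. Exon lengths and overlaps came from GENCODE M21. Alternatives were RLE, library size only, 20 top genes left out, DESeq2 1.42.0, a stricter filter (5 CPM in 2 libraries), no filter, thinning, limma-voom 3.58.1, a replicate block and leaving out each library. The 10 genes and the lists were chosen with earlier results of these data known. Named list genes were called at 10 CPM or more in a group, smallest p first. Of the genes on the lists, 3 marker genes were not analysed here. The values of 1 list gene called by this rule are not reported here.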

Additional observations from a re-analysis of the deposited data

How the results depend on the processing

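Under all 14 alternatives Nfe2l2 and Cat stayed called higher in McSC, and Gclc, Gclm, Gsr and Keap1 higher in melanocytes. The log2 fold change of Nfe2l2 ranged from -2.10 to -1.76, that of Cat from -1.45 to -1.13, that of Gsr from 1.64 to 1.92 and that of Gclc from 1.47 to 1.75. Leaving out each library in turn gave 4 to 6 of the 10 genes higher in melanocytes and 2 in each case higher in McSC. Over all genes, the number higher in McSC ran from 2955 to 4857 under the same omissions, and the number of redox list genes higher in melanocytes from 29 to 49. The sign of Txnrd1 turned with library size only (0.22), a stricter filter (0.016) and thinning (0.014). It also turned without McSC replicate 1 (0.0326), melanocyte replicate 1 (0.0614) or melanocyte replicate 3 (0.00345), and stayed negative without melanocyte replicate 2 (-0.093). That of Hmox1 turned with the replicate block (-0.0184). All of these were without a call, and the cause was not tested. With library size only, the median over all genes moved on the log2 scale from 0.03 to 0.26, and the share of calls higher in melanocytes from 52.6% to 63.7%.

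The replicate numbers are not said to mark a shared litter or day, and deviations of same-numbered libraries correlated by 0.04 and -0.06. With the replicate block, the 10 genes gave 4 calls higher in melanocytes and 2 in McSC, without Nqo1, and over all genes 3933 and 3479. Nqo1 was not in the stricter filter's genes. Without one McSC library, the other is assumed to vary like the melanocytes. Nqo1 had 72 counts in its shallowest library and, thinned to that depth, a log2 fold change of 0.47 (adjusted p = 0.239).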
